A study of Mus musculus with 4 samples.

Results

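The Serpin genes were the protein-coding genes of the RefSeq table of GRCm38 whose symbol begins with Serpin. There were 63 of them among 21631 protein-coding genes, in 9 clades named by the letter after Serpin. Clade B had 28 genes, clade A 24, clade E 3, clades F and I 2 each, and clades C, D, G and H 1 each. The members lie close together in the genome: 23 clade A genes form a cluster on chromosome 12, and the clade B genes form clusters of 12 genes on chromosome 1 and 16 on chromosome 13. Open chromatin at these genes was read from ATAC-seq, in which the Tn5 transposase inserts sequencing adaptors into accessible DNA.

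Frozen liver (20 mg for each library) was taken from 11-week-old FVB females fed standard chow and processed by the Omni-ATAC method. Of 4 libraries, 2 came from wild-type mice (WT 1 and WT 2) and 2 from mice labelled PA (PA 1 and PA 2), whose genotype the labels give as hypomorphic Pcca-/- (A138T). Pcca encodes the alpha subunit of propionyl-CoA carboxylase, and its loss causes propionic acidemia. The files give 1 list of peak positions per library and no signal height, so each gene has a call or no call in a library. WT 1 had 26280 peaks, WT 2 had 25941, PA 1 had 25683 and PA 2 had 29765. Read depth is unknown. The labels number the libraries but do not say that the 2 of a group came from separate mice. The tissue was bulk liver, so fewer cells of a type and less open chromatin per cell cannot be told apart. Of 8 hepatocyte marker genes, 4 had a peak within 1 kb of an end in all 4 libraries, beside 41.3% of all protein-coding genes. A list of 8 genes is too short to set this count apart from that share. Ttr and Cps1 were among the 4, while Alb had such a peak in PA 1 and Apoa1 in no library. In the lists of Kupffer, endothelial, stellate, bile duct, neutrophil and lymphocyte markers the count in all 4 libraries was 0 or 1 gene per list (at most 16.7%, beside the same 41.3%). Of the 6 Kupffer cell markers, WT 1 and WT 2 had calls at 0, PA 1 at 2 (Adgre1 and Timd4) and PA 2 at 1 (Adgre1), and their part in the differences between genotypes given here was not tested. Over all genes, 0.661% had calls near an end in both PA and neither WT library, the pattern of Adgre1.

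Serpins are proteins of a shared fold, and most of them inhibit serine proteases by offering a reactive loop as bait and then trapping the protease irreversibly. The liver secretes many clade A serpins into plasma, together with antithrombin, heparin cofactor II, alpha2-antiplasmin and C1 inhibitor, which restrain neutrophil elastase, coagulation, fibrinolysis and complement. Clade B serpins mostly stay in the cytoplasm, and a few members of the family, such as the hormone carriers and a collagen chaperone, inhibit no protease. Rodents carry expanded sets of Serpina1, Serpina3, Serpinb3, Serpinb6 and Serpinb9 genes.

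The sequences just upstream of the Serpina1 genes are shown because these 5 copies, which encode alpha1-antitrypsin, are nearly alike in sequence and did not have the same calls. Each stretch is 112 bases long, reads 5′ to 3′ on the minus strand of GRCm38.p6 chromosome 12 and comes from the RefSeq promoter table. Capitals mark bases that differ from Serpina1b.
Serpina1b: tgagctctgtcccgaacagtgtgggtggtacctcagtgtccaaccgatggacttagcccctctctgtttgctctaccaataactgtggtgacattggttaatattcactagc
Serpina1d: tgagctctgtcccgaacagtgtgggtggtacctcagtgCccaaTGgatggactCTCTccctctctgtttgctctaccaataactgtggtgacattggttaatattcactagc
Serpina1c: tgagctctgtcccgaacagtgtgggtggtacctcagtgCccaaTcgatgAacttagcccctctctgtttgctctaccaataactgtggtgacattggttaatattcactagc
Serpina1a: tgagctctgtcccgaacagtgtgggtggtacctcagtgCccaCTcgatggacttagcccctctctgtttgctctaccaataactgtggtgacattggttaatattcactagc
Serpina1e: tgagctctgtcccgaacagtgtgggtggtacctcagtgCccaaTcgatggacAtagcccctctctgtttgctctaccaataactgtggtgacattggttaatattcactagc
The stretches lie at chr12:103738200-103738311 for Serpina1b, chr12:103773634-103773745 for Serpina1d, chr12:103904962-103905073 for Serpina1c, chr12:103863625-103863736 for Serpina1a and chr12:103956960-103957071 for Serpina1e. Serpina1e differs from Serpina1a at 2 bases, from Serpina1c at 2 and from Serpina1b at 3. Serpina1d is the most distant, with 6 or 7 differences from each of the others.

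Regions were made by merging the peaks of the 4 libraries where they overlapped or touched. A region covered the whole stretch of Serpina1b, Serpina1d and Serpina1c in all 4 libraries, and that of Serpina1a in WT 1, WT 2 and PA 1. No library had a peak over the stretch of Serpina1e, whose nearest peaks were 1 of PA 2 inside the gene and a region in all 4 libraries 6424 bp outside it. Where in its own list a peak stood was also read, as its line number in percent of the lines (the sources used here do not say how the authors ordered them). By this measure, where 0% is the top line, Serpina1b had its peak at 19.6% for WT 1, at 19.5% for WT 2, at 24.2% for PA 1 and 12.5% for PA 2. The Serpina1d peak stood at 23.7%, 25.4%, 44.8% and 20.8% in the same order. The Serpina1c peak stood at 43.4%, 25.6%, 54.4% and 25.3%. The Serpina1a peak stood at 26.6% in WT 1, 23.9% in WT 2 and 47.3% in PA 1. PA 1 had the lowest-placed peak of the libraries at each of these 4 copies. Over the promoter windows, from 250 bases before to 50 after the start, identity between Serpina1a, b, c and d ranged from 85.2% (c and d) to 91.4% (b and c). The sources used here do not say how reads that map to several places were treated, and calls at single Serpina1 copies are uncertain for that reason.

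A peak within 1 kb of a gene end was called in all 4 libraries for 11 of the 63 Serpin genes (17.5%), against 41.3% of all protein-coding genes and 26 of 98 cytochrome P450 genes (26.5%), another large clustered family with many liver enzymes. At least 1 library had such a peak at 25 Serpin genes (39.7%), against 51.7% of all genes, and no library had one at 38 (60.3%, against 48.3%). Clade A lay on the other side of these 2 shares, with 14 of 24 genes in at least 1 library (58.3%) and 10 in none (41.7%). Clade B had 3 of 28 (10.7%) and 25 (89.3%). By clade, the count in all 4 libraries was 6 of 24 in clade A (25.0%) and 2 of 28 in clade B (7.14%). Both shares lay below the 41.3% of all genes. Serping1 and Serpini1 were among the others. Each library had calls at fewer Serpin genes than its own share over all genes would give: WT 1 had 14, WT 2 had 21, PA 1 had 15 and PA 2 had 20, or 22.2%, 33.3%, 23.8% and 31.7%, where all genes gave 46.2%, 46.4%, 46.3% and 47.0%. In the same order clade A alone gave 33.3%, 54.2%, 37.5% and 45.8%, and clade B 7.14%, 7.14%, 7.14% and 10.7%. Clade A was thus above all genes in WT 2 only, and below them in WT 1, PA 1 and PA 2. Inside the gene, 13 Serpin genes had a peak in all 4 libraries (20.6%, against 47.5% of all genes). By library WT 1 had 17, WT 2 had 27, PA 1 had 22 and PA 2 had 25 (27.0%, 42.9%, 34.9% and 39.7%, against 53.9%, 53.9%, 53.8% and 55.2% of all genes). Serpin genes are shorter, with a median of 11064 bp against 17329 bp for all protein-coding genes. Including the 50 kb on either side, 43 Serpin genes had a peak in every library (68.3%, against 76.3%).

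**Figure D1:**
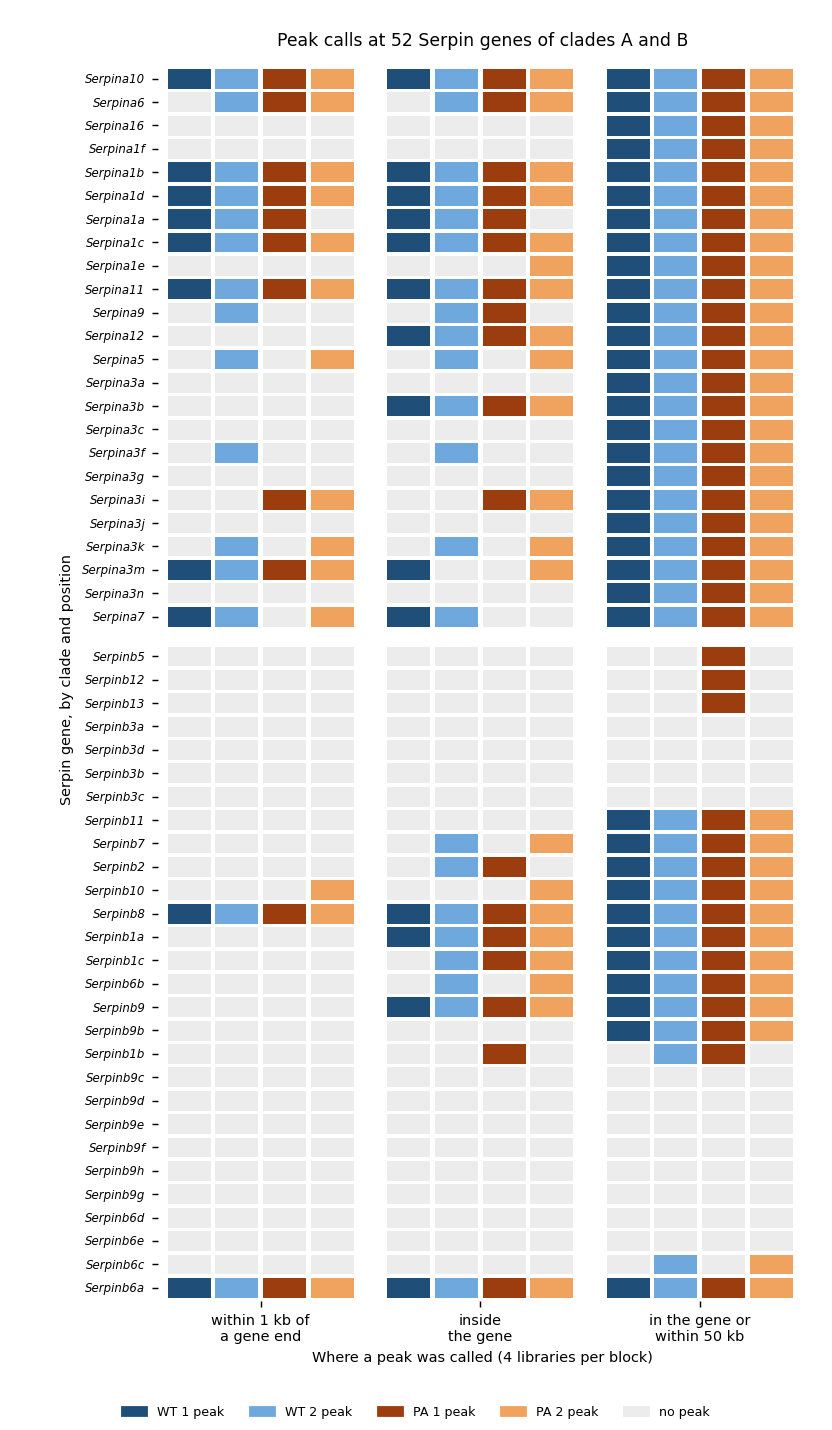
Peak calls at the 24 clade A and 28 clade B Serpin genes. Rows are genes ordered by clade and position, each block of 4 columns holds the 4 libraries, and a coloured cell marks at least 1 peak within 1 kb of a gene end (left), inside the gene (middle) or in the gene and the 50 kb on either side (right). All 24 clade A genes had a call in all 4 libraries in the widest window, and 12 clade B genes had none in any library.

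**Figure D2:**
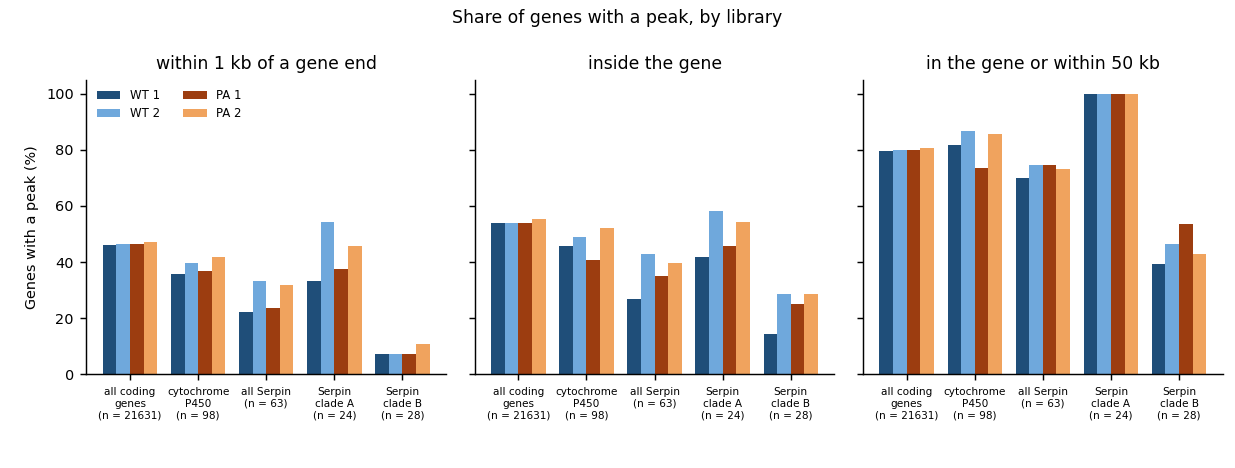
Share of genes with a peak in each library, for all protein-coding genes, cytochrome P450 genes, all Serpin genes and the 2 largest Serpin clades, with the y axis in percent of genes and n under each group. Near gene ends the 4 libraries lay between 46.2% and 47.0% over all genes, and between 22.2% and 33.3% over Serpin genes.

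Clade A holds many of the secreted liver serpins, and its genes with a call near an end in all 4 libraries were Serpina1b, Serpina1c, Serpina1d, Serpina10, Serpina11 and Serpina3m. Serpina10 encodes the protein Z-dependent inhibitor of coagulation factor X, and a region over its upper end (chromosome 12, 103631249 to 103631693) stood between 43.8% and 56.0% of the way down the lists. The Serpina11 region lay inside the gene, 690 bp downstream of the nearer annotated start by its centre. Serpina3m, an antichymotrypsin-like gene, had a region 808 bp outside it that stood between 28.6% and 38.2%, and another over its end in WT 1 and PA 2. Each of these genes had the call in both genotypes.

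A further 8 clade A genes had a call near an end in 1 to 3 libraries. Serpina6, which encodes corticosteroid-binding globulin, had one in WT 2 (15.4% down the list), PA 1 (28.1%) and PA 2 (30.7%). Serpina7, which encodes thyroxine-binding globulin on the X chromosome, had calls in WT 1, WT 2 and PA 2. Serpina5, the gene of protein C inhibitor, and Serpina3k, an antichymotrypsin-like gene, had calls in WT 2 and PA 2. At Serpina5 the peaks were at the 3′ end of the gene, about 4918 bp downstream of the annotated start. Serpina3i, one of the expanded Serpina3 genes, had calls in PA 1 and PA 2, and Serpina9 and Serpina3f had one in WT 2. The remaining 10 clade A genes (41.7%, against 48.3% of all genes) had no such call: Serpina16, Serpina1e, Serpina1f, Serpina12, Serpina3a, Serpina3b, Serpina3c, Serpina3g, Serpina3j and Serpina3n.

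Some of these genes had regions in all 4 libraries away from their ends. Serpina12 encodes vaspin, an adipokine, and held a region 2855 bp downstream of its start (17.2% to 35.4% down the lists) and another at 10517 bp (32.4% to 52.9%). Serpina3b held one 3256 bp downstream of its start. Serpina3n, an acute phase gene, had its nearest region 2276 bp outside it, called in WT 1, WT 2 and PA 1.

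The clade A cluster had more regions per length than the surroundings of genes in general. Over the 897660 bp of its genes and their flanks, 39 regions were counted, or 43.4 per Mb, against 20.0 per Mb within 50 kb of any protein-coding gene. For regions in all 4 libraries the values were 15.6 and 9.46 per Mb. Genes are also closer together in the cluster, with 23 in 897660 bp. The windows of all 21631 genes spanned 1661068621 bp and held 33215 regions. The part of gene density in this difference was not tested. By library the cluster held 25.6 regions per Mb for WT 1, 34.5 for WT 2, 24.5 for PA 1 and 32.3 for PA 2, where the surroundings of all genes held 13.8, 13.6, 13.5 and 15.5.

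**Figure D3:**
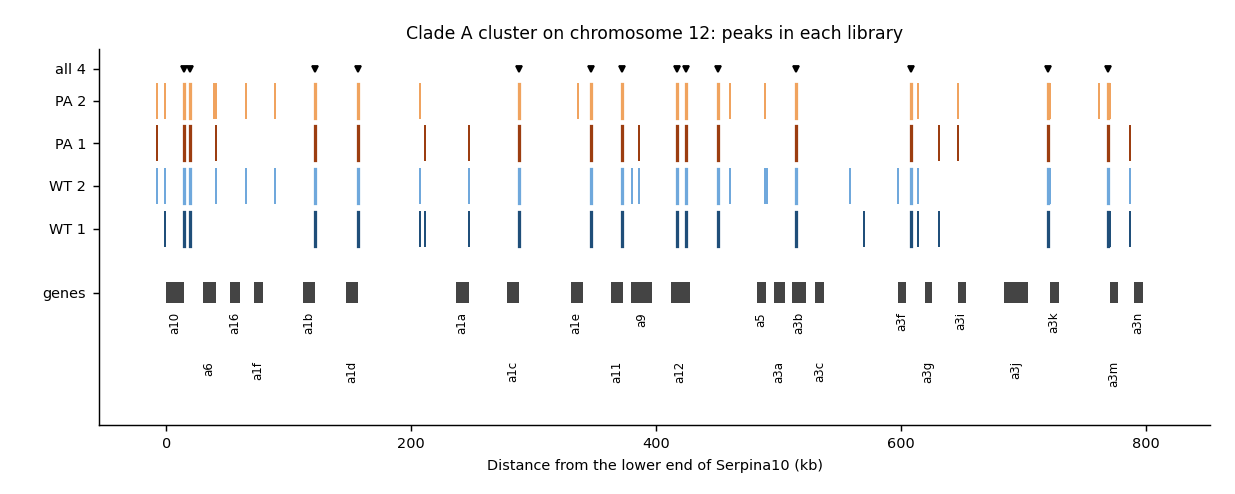
Peaks of each library along the clade A cluster of chromosome 12. The x axis is the distance in kb from the lower end of Serpina10, boxes are genes (labelled without the prefix Serpin), coloured bars are peaks by library, and triangles mark the 14 regions called in all 4 libraries. WT 2 and PA 2 hold peaks that WT 1 and PA 1 lack, for example at Serpina5 and Serpina3k.

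The clade B genes encode mostly cytoplasmic inhibitors, and 25 of the 28 had no peak near an end in any library (89.3%, against 48.3% of all genes). Serpinb8 and Serpinb6a had one in all 4. The Serpinb8 region (chromosome 1, 107589656 to 107590170) lay over the annotated start and stood at 53.0% for WT 1, 56.0% for WT 2, 71.5% for PA 1 and 60.3% for PA 2. The Serpinb6a region (chromosome 13, 34002145 to 34002583) also lay over an end of Ripk1, the gene of a kinase of the cell death pathway, and cannot be assigned to either gene. Serpinb10 had a peak near its end in PA 2.

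Counting annotated starts in place of gene ends added clade B genes, because some RefSeq starts lie inside the gene span. RefSeq starts were available for 54 of the 63 genes. Serpinb9, the inhibitor of the lymphocyte protease granzyme B, had a region at its start in every library (chromosome 13, 33004428 to 33004860), at 12.1% for WT 1, 27.9% for WT 2, 11.5% for PA 1 and 20.7% for PA 2. Its calls did not differ between the genotypes. Serpinb6b had one at its start in WT 2 (66.3%) and PA 2 (63.0%). By this measure 8 Serpin genes were called in all 4 libraries (14.8%, against 44.2% of 17274 genes), 3 of them in clade B.

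**Figure D4:**
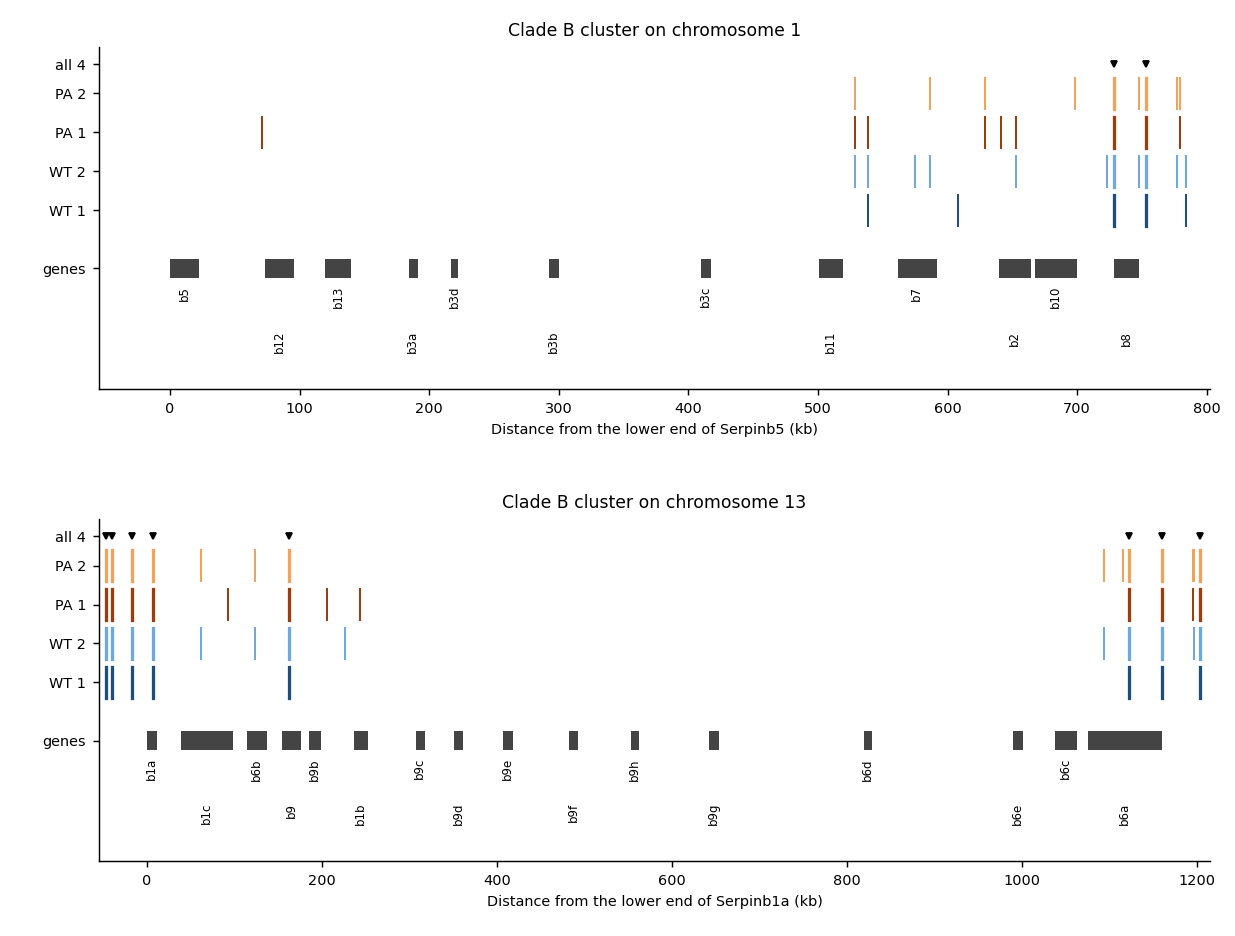
Peaks of each library along the clade B clusters of chromosome 1 (top) and chromosome 13 (bottom), drawn as for clade A, with the x axes in kb from the lower ends of Serpinb5 and Serpinb1a. The long empty stretches hold the Serpinb3 genes on chromosome 1 and the Serpinb9c to Serpinb6d genes on chromosome 13.

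Long stretches of both clade B clusters held no peak of any library. On chromosome 1 a stretch of 457 kb, from Serpinb12 to Serpinb11, had none and held 7 Serpin genes, the 4 Serpinb3 genes among them, which encode the squamous cell carcinoma antigen family of epithelia. On chromosome 13 a stretch of 677 kb had none and held Serpinb9c, Serpinb9d, Serpinb9e, Serpinb9f, Serpinb9g, Serpinb9h and Serpinb6d. Neither stretch held the whole of any other protein-coding gene. Within 50 kb, 12 of the 28 clade B genes had no peak in any library, against 16.3% of all genes (42.9% of clade B). The promoter windows in these stretches include near copies, with Serpinb9e and Serpinb9g 93.4% identical. The part of read mapping in these empty stretches was not tested.

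Among the serpins of other clades, those with calls near an end in all 4 libraries included Serping1 and Serpini1. Serping1 encodes C1 inhibitor of the complement and contact systems, and its peaks fell in neighbouring regions. WT 2 and PA 2 had theirs at 84774720 to 84775121 of chromosome 2, and WT 1 and PA 1 at 84775267 to 84775686, 145 bp further. The libraries differed there in the placing of a peak rather than in its presence near the gene end. Serpini1 encodes neuroserpin, an inhibitor made mainly in neurons. Its region (chromosome 3, 75556822 to 75557271) stood 0.0875% down the list of WT 1, with 0.139% for WT 2, 0.0857% for PA 1 and 0.289% for PA 2, higher than any other region near a Serpin end. It overlapped an end of Pdcd10 and lay 222 bp outside Serpini1, so it cannot be assigned to either gene.

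The plasma inhibitors of thrombin had less complete calls. Serpinc1 encodes antithrombin, and the region over its start (chromosome 1, 160978015 to 160978724) was called in WT 2 (44.6% down) and PA 2 (36.6%) and in neither WT 1 nor PA 1. A region inside Serpinc1, centred 8828 bp downstream of the start, was called in all 4 libraries, between 14.4% (PA 2) and 28.5% (PA 1) of the way down. Serpind1 encodes heparin cofactor II, and its start had a peak in WT 1 (59.2%), WT 2 (53.5%) and PA 2 (45.3%) but none in PA 1. Serpinf2, the gene of alpha2-antiplasmin, had none near an end, and a region in all 4 libraries lay 4225 bp outside it, nearer to an end of Wdr81 (2783 bp).

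Other genes of these clades had calls in at most 1 library near an end. Serpine2, the gene of protease nexin 1, had one in WT 2 (86.4% down the list), and Serpine3 in PA 2 (97.6%). Serpinh1 encodes the collagen chaperone HSP47 of collagen-making cells and had no call, its nearest peak lying 6802 bp outside the gene in PA 1. Serpini2 had no peak of any library within 50 kb and lay in a stretch of 891 kb without one.

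The study compared livers of the genotypes, and few Serpin loci separated them. Serpin loci, the genes with 50 kb on either side, held 120 of the 38853 merged regions. Of these 41 were called in all 4 libraries (34.2%, against 45.3% of all regions). PA-only regions, called in both PA and neither WT library, numbered 4 (3.33%, against 3.38%). WT-only regions, the reverse, numbered 3 of 120 (against 1.98% of all regions). The PA-only share was near that of all regions, and 3 regions are too few to set the WT-only share apart. A further 35 regions were held by 1 library (29.2%, against 26.8%). The mean number of Serpin genes with a peak near an end was 17.5 ± 4.95 (SD, n = 2) for the WT libraries and 17.5 ± 3.54 (SD, n = 2) for the PA libraries. The spread went with the library number, since the libraries numbered 1 had 14 (WT) and 15 (PA) and those numbered 2 had 21 (WT) and 20 (PA). No test was run, since 4 libraries can be split into pairs in 3 ways and an exact permutation cannot give a p below 0.333.

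At the start of a Serpin gene, the genotypes were separated at Serpina3i and Serpina7. The Serpina3i region (chromosome 12, 104262875 to 104263278) was called in PA 1 (71.6% down the list) and PA 2 (75.4%), and the nearest WT peak lay 14858 bp away. It was the only Serpin gene with calls near an end in both PA and neither WT library (1.59%, against 0.661% of all genes), and 0 Serpin genes had the reverse pattern (against 0.476%). The same region lay within 50 kb of Serpina3f, Serpina3g and Serpina3j. The Serpina7 region (chromosome X, 139085081 to 139085498) was called in WT 1 (59.0%) and WT 2 (79.6%), and the nearest PA peak lay 6149 bp away. Counted at annotated starts, Serpina3i was 1 gene with PA calls alone (against 0.643% of all genes) and Serpina7 was 1 with WT calls alone (against 0.457%). At either end, Serpina7 is not counted as a gene with WT calls alone, because PA 2 had a peak near its other end. The Serpina7 start region also lay within 1 kb of an end of 4930513O06Rik. All 4 of these peaks stood in the lower 50% of their lists.

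The 150 bases upstream of these starts are shown because the region that separated the genotypes covered the whole of each. Capitals mark matches to the motifs named after the sequences and to no others, read 5′ to 3′ on the plus strand for Serpina3i and the minus strand for Serpina7.
Serpina3i, chr12:104262972-104263121: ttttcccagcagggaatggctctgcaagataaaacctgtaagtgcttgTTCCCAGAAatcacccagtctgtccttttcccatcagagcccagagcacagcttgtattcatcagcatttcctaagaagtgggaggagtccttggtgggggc
Serpina7, chrX:139085237-139085386: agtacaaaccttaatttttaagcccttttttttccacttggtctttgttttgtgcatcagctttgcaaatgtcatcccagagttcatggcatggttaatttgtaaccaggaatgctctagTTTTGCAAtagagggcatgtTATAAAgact
The capitals in Serpina3i are a match to TTCNNNGAA, the spacing bound by STAT5, a factor of growth hormone signalling. Those in Serpina7 are a match to the C/EBP pattern TTNNGCAA, the reverse complement of TTGCNNAA, and to TATAAA, the letters of the TATA box. TATAAA stood at -10 to -5 from the start used here (139085236), and at -27 to -22 from the other annotated start (139085219).

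Serpinf1, which encodes the antiangiogenic factor PEDF, had a peak in each PA library and in neither WT library, inside the gene. They were not one region, since the PA 2 peak (chromosome 11, 75420983 to 75421382) and the PA 1 peak (75421401 to 75421800) were 18 bp apart. They stood 38.8% and 63.0% of the way down their lists. With Serpina3i, Serpinf1 was 1 of 2 Serpin genes with PA calls alone inside the gene (3.17%, against 0.878% of all genes), and Serpina7 was the 1 with WT calls alone (against 0.582%). With peaks within 200 bp joined, PA-only regions numbered 5. Other restricted regions lay outside Serpin genes. A PA-only region lay 10870 bp from Serpinb2, a plasminogen activator inhibitor of macrophages, and within 50 kb of Serpinb7 and Serpinb10. Another lay 31218 bp from Serpinb8, and 1 more, 34612 bp from Serpinb6a, overlapped an end of Bphl. A WT-only region lay 36099 bp from Serpinb8.

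The libraries numbered 2 shared more Serpin regions than the libraries of either genotype did. WT 2 held 88 of the 120 regions and PA 2 held 83, against 65 in WT 1 and 66 in PA 1. WT 2 had fewer peaks than WT 1 in its whole list. Regions held by WT 2 and PA 2 alone numbered 16 (13.3%), against 3.11% of all regions and 5.74% of regions at cytochrome P450 genes. Regions held by WT 1 and PA 1 alone numbered 3 of 120 (against 1.33% of all regions). The 16 lay in the clade A cluster, in both clade B clusters and near Serpinc1, Serpinf2, Serping1 and Serpini1. Among them were the starts of Serpinc1 and Serpinb6b and an end of Serpina3k and Serpina5. With every list held to the length of the shortest, WT 2 and PA 2 alone held 14 of 116 Serpin regions (12.1%). Whether libraries of the same number share a day of preparation is not stated in the labels, and what goes with the number was not tested.

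**Figure D5:**
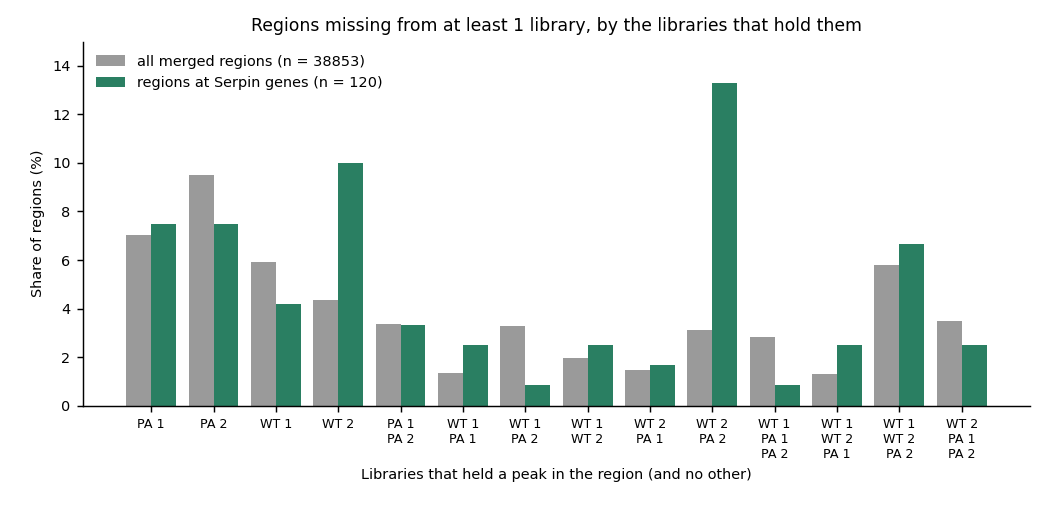
Share of merged regions (y axis, percent) by the set of libraries that held a peak there, for all 38853 regions (grey) and the 120 regions at Serpin genes (green), leaving out regions in all 4 libraries. The set WT 2 with PA 2 holds 13.3% of Serpin regions and 3.11% of all regions.

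Motif matches were counted in the promoter windows, from 250 bases before to 50 after each annotated start, on both strands. TTGCNNAA, a pattern of C/EBP factors that drive acute phase and plasma protein genes, was matched in 10 of 19 clade A genes with a start in the table (52.6%), among them Serpina1b, Serpina1d, Serpina1e, Serpina12 and Serpina7. It was matched in 3 of 26 clade B genes (11.5%) and in 11.8% of all protein-coding genes with a start. TATAAA was matched in 15 of the 54 Serpin genes (27.8%, against 14.9% of all genes with a start), in 0 of the 8 called at their start in all 4 libraries and in 13 of the 36 called there in none (36.1%). Among all genes the shares were also lower where all 4 libraries had the call (8.11%) than where none had it (21.9%), and 0 of 8 is near the first of these. TTCNNNGAA was matched in 8 of the 54 Serpin genes (14.8%, against 9.02% of all genes with a start), among them Serpina11, Serpina3f, Serpina3g, Serpina3i and Serpinb6a. The HNF4 pattern CAAAGTCCA and the heat shock element were matched in 0 Serpin windows, against 0.475% and 0.603% of all windows. The Serpina1 copies share their sequence and are not independent matches.

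Genes that act with the plasma serpins were counted in lists by function, with a call again meaning 1 or more peaks near a gene end. Of 22 proteases that serpins inhibit, 7 were called in all 4 libraries (31.8%, where all protein-coding genes gave 41.3%). The coagulation factor genes F2, F7, F9 and F10 were among them, while F11 was called in WT 2, PA 1 and PA 2, and F12 in no library. Of 15 other plasma protease inhibitors, 3 were called in all 4 libraries (20.0%, against the same 41.3%). In that list Itih3, a heavy chain of the inter-alpha-trypsin inhibitors, was called in every library, its relative Itih2 in PA 1 and PA 2, Itih4 in WT 2, Ambp in PA 1, and A2m and Itih1 in none. Of 16 liver transcription factor genes, 8 were called in all 4 libraries, beside 41.3% of all genes, among them Cebpa and Cebpd, while Hnf4a and Cebpb lacked the PA 1 call. Of 12 genes of serpin folding, export and clearance, 9 were called in all 4 (75.0%, against 41.3%), including the cargo receptor pair Lman1 and Mcfd2, the lectin chaperones Canx and Calr, and Hspa5, while Edem1 was called in none. Beside Itih2, the genes of these 4 lists with calls in both libraries of a genotype and neither of the other, picked out after their values were seen, were Tfpi (PA), Onecut1 (WT) and Lrp8 (WT). Over all genes such calls made up 0.661% for PA and 0.476% for WT. Inside the gene, Itih2 and Onecut1 had peaks in all 4 libraries, while Tfpi had them in PA 1 and PA 2 alone and Lrp8 in WT 1 and WT 2 alone.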

How the data were processed

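The authors deposited 1 BED list of peak positions per library, with no score, so a value here is a position and carries no unit. The submitters' processing notes name HOMER 4.10, bedtools 2.31.0, SAMtools 1.17, Bowtie2 2.5.1, cutadapt 3.5 and R 4.1.2, with build GRCm38 (mm10). Neither the peak caller nor its threshold, filters or line order could be read from the sources used here. Most peaks span 400 bp. Gene ends came from RefSeq (GRCm38.p6), and starts and promoter sequences from its promoter table, which matched 54 of 63 Serpin genes. Serpina10, Serpina6, Serpina9, Serpina3k, Serpina3m, Serpinb13, Serpinb1a and Serping1 were among those without a match. Peaks were assigned with Python 3.11.15, and promoters aligned with Biopython 1.88. A peak was near a gene when within 1 kb of either end. Counting was tested on simulated peaks. Members and lists were chosen with earlier results of these data known. Named genes were every Serpin gene with a peak near an end or a genotype-restricted region within 50 kb, and up to 6 genes of each other list, in list order. Serpina12, Serpina3b, Serpina3n, Serpinb9, Serpinb6b and the peak-free stretches were singled out after their values were seen. Some genes and a motif that these rules cover are not reported here. No test across libraries was run. Alternatives were other distances, annotated starts, joined peaks, lists of equal length and leaving out each library.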

Additional observations from a re-analysis of the deposited data

How the results depend on the processing

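A list gives a call or none, depth is unknown, and counts under 5 rest on single peaks. No paired analysis was possible because the results come from no test, although WT and PA libraries share the numbers 1 and 2 in their labels. The labels do not say whether a number marks a pair. Read by number, Serpin genes with a peak near an end were 14 in WT and 15 in PA for number 1, and 21 and 20 for number 2, so the genotypes differed in opposite directions. Of 71 recomputed values, 46 stayed within 1.5 times the value reported. Genes with PA calls alone numbered 2 at 2 kb (1 at 1 kb). Genes with WT calls alone numbered 1 at 500 bp and 1 with annotated starts (0 at 1 kb from either end). Regions in all 4, in PA alone and in WT alone (41, 4 and 3) numbered 23, 1 and 1 within 10 kb, and 14, 1 and 1 inside genes. Those in all 4 libraries nearest to a Serpin numbered 20. With equal lists 5 regions were WT-only. Inside genes, regions of WT 2 and PA 2 alone numbered 9 of 47 (19.1%), against 16 of 120 in the wider window (13.3%). At cytochrome P450 genes the share was also higher inside genes (8.86%) than in the wider window (5.74%). With 1 library fewer, a pattern asks for 1 call or 1 absence fewer, by construction. Genes with PA calls alone then numbered 1 to 3, and with WT calls alone 0 to 3. PA-only regions numbered 5 without WT 1, 7 without WT 2, and 13 without PA 1 or without PA 2. WT-only regions numbered 15 without WT 1, 8 without WT 2, 6 without PA 1 and 11 without PA 2. Genes called in every library left numbered 11 to 13, and regions 42 to 49. Mean genes per library were 14 to 21 in WT and 15 to 20 in PA. The count for WT 2 and PA 2 alone and its alternatives were chosen after seeing the data.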

Other observations

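Of 6 Serpin pseudogenes in the same table, 3 had a peak within 1 kb of an end in at least 1 library, near the 51.7% of all protein-coding genes. Serpina4-ps1 had one in WT 2 and PA 2, Serpina3d-ps in WT 2, and Serpina3h in WT 1 and PA 1. Serpina3e-ps, Serpina3l-ps and Serpinb1-ps1 had none. All but Serpinb1-ps1 lie in the clade A cluster on chromosome 12.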
